A study of Mus musculus with 128 samples.

Results

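The expression of 7 genes of hepatic glucose production was followed through fasting, feeding and sugar drinking in mouse liver. They were picked by symbol: Pck1 and Pck2, the cytosolic and mitochondrial phosphoenolpyruvate carboxykinases; Pcx, pyruvate carboxylase; Fbp1, fructose-1,6-bisphosphatase; and, for the last step, the glucose-6-phosphatase catalytic subunits G6pc and G6pc3 with Slc37a4, the glucose-6-phosphate transporter. The count table listed 35275 genes and held all 7 of them, and all 7 were among the 16886 genes that passed a filter on low counts and were tested. Liver RNA was sequenced in 63 BALB/c and 65 C57BL6/J libraries that fell into 26 groups by strain, drink and time, with 5 libraries in 24 groups and 4 in each of 2 (BALB/c with fructose and with glucose at 12 h). The mice were wild-type males of the BALB/c and C57BL6/J strains, 8 weeks old, that had learnt for 1 week to eat chow only in the evening. After a fast of 21 h they received chow together with water holding 20% fructose, 20% sucrose or 20% glucose, or with plain water, and livers were taken 3, 6 or 12 h later. A further group on plain water was killed before any food was offered and is the 0 h group of each strain. All groups share the training, the fast and the chow, with 10% of kcal from fat and 64.5% from carbohydrate. They also share a feeding window from 7 to 10 pm and the removal of water at 4 pm. No group carried a transgene or a drug. The labels number the libraries of a group and do not name the animals, so each p-value weighs a difference against library-to-library spread, which may be technical. Feeding time also runs with the hour of the day, since every mouse was fed at the same hour; the effects of the meal and of the clock cannot be told apart in comparisons with 0 h, whereas drinks at one time share the hour.

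Gluconeogenesis makes glucose from lactate, alanine and glycerol by passing around the irreversible steps of glycolysis. Pyruvate carboxylase and phosphoenolpyruvate carboxykinase carry pyruvate to phosphoenolpyruvate, fructose-1,6-bisphosphatase removes a phosphate from fructose-1,6-bisphosphate, and glucose-6-phosphatase in the endoplasmic reticulum releases free glucose from glucose-6-phosphate that Slc37a4 brings in. Glucagon, acting through cyclic AMP, and glucocorticoids raise transcription of Pck1 and G6pc in fasted liver, and insulin lowers it. Fructose enters liver metabolism below the first regulated step of glycolysis and activates ChREBP, a carbohydrate-sensing transcription factor that binds E-box pairs and for which G6pc is a known target.

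The libraries held 18541545 to 43118895 counts, of which 0.101 to 0.872% fell on the 7 genes, and no gene of the 7 had fewer than 34 counts in any library. Levels below are counts per 1000000 (CPM) on library sizes scaled by edgeR's TMM method, unless a per-length scale is named. The summed hepatocyte markers were at 45650 to 129100 CPM over all libraries. One fasted library, C57BL6/J water 0 h replicate 2, had 160.3 CPM of Pck1. Distances were taken over the genes that varied most between times within a strain, leaving out the 7 genes, the listed genes and the markers. By this measure it lay nearer to the 3 h livers than to its own group. In all, 15 libraries lay nearest to another time than their labelled one, among them replicate 4 of C57BL6/J glucose and fructose at 3 h and replicate 4 of every drink but glucose at 6 h in both strains. For the main results the value without these libraries is given, as are the calls for single genes that change without them. BALB/c water 6 h replicate 1 and BALB/c glucose 6 h replicate 3 held 943.5 and 1567 CPM of kidney transcripts, against a median of 0.0886 CPM over all libraries. The summed pancreas markers reached 1497 CPM in C57BL6/J glucose 6 h replicate 3 and the adrenal markers 599.7 CPM in C57BL6/J water 6 h replicate 2. On water the summed skeletal muscle markers had medians of 227 CPM at 0 h, 67.3 CPM at 3 h, 230.4 CPM at 6 h and 2.29 CPM at 12 h. With the sugars at 3 h the medians were 60.1 CPM for fructose, 164.1 CPM for sucrose and 226.7 CPM for glucose. The part of pancreas, adrenal and muscle transcripts in the results was not tested. The names of 34 libraries end in the suffix a; the labels do not say what it marks, and values within the other 94 are given beside the main results. In whole liver, fewer cells of a type and less RNA per cell cannot be told apart.

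Promoter sequence is shown for Pck1 and G6pc, the pair on which the feeding and fructose results turn. RefSeq lists for each gene a window from 250 bases before to 50 bases after its start (build GRCm38.p6), and all 7 symbols matched, with 3 windows for Slc37a4 and 2 for Pcx. The windows are chr2:173152823-173153122 for Pck1 and chr11:101367466-101367765 for G6pc, both on the plus strand. In the deposited annotation Pck1 runs on chromosome 2 from 173153048 to 173159273 and G6pc on chromosome 11 from 101367561 to 101377903. G6pc3 lies on the same chromosome as G6pc, from 102189620 to 102194081, and the others lie at chr14:55540266-55550017 (Pck2), chr9:44398176-44402963 (Slc37a4), chr13:62864753-62888282 on the minus strand (Fbp1) and chr19:4510472-4621752 (Pcx). The letters in capitals are ACGTCA, a half-site of the cyclic AMP response element, in Pck1, and TGTTTTG, which reads CAAAACA on the other strand and is the core of the insulin response unit, in G6pc.
Pck1: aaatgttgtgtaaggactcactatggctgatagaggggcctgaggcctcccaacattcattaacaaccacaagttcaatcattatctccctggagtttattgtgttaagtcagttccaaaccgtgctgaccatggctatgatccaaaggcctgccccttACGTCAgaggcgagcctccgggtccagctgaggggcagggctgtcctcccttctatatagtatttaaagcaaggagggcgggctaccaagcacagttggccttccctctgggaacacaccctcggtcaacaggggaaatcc
G6pc: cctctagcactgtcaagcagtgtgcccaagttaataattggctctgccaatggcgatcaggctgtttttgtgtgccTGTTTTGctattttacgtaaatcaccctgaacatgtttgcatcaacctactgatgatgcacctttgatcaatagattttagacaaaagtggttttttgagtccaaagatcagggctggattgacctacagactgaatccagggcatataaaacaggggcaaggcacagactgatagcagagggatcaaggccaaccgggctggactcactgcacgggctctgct
Searched on both strands, ACGTCA lay 91 bases before the start of Pck1 and also in the overlapping first and second windows of Slc37a4, and 7.513% of all 32851 promoter windows hold it. CAAAACA began 174 bases before the start of G6pc and 159 bases before that of Pck2, against 6.283% of all windows. CACGTG, the E-box, was in the window of G6pc3, at 2 places, and in the first window of Pcx, against 7.15% of all windows. GTAAACA, a FoxO site, was in none of these windows, against 3.65% of all. The 4 motifs share no letters at these places, and a match describes the letters only.

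Fbp1 was the most abundant of the 7 messages per transcript length, with a median of 571 deposited FPKM over all libraries, and Pck1 followed with 225 FPKM. G6pc at 117 FPKM, Slc37a4 at 113 FPKM and Pcx at 104 FPKM had similar medians. The second isozymes were far lower, G6pc3 at 5.78 FPKM and Pck2 at 1.15 FPKM, and the order was the same on CPM per kilobase. Pck1 exceeded Pck2 in every library, by a median FPKM ratio of 200.4 that ranged between 7.49 and 3268. G6pc exceeded G6pc3 in every library, by a median of 20.0, between 1.73 and 73.8. Fbp1 exceeded Pck1 in 102 libraries and lay below it in the rest. Between libraries Pck1 varied most, with a highest CPM 149-fold the lowest, followed by G6pc with 26.2-fold, while G6pc3 and Pcx spanned 3.71-fold and 3.29-fold.

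**Figure D1:**
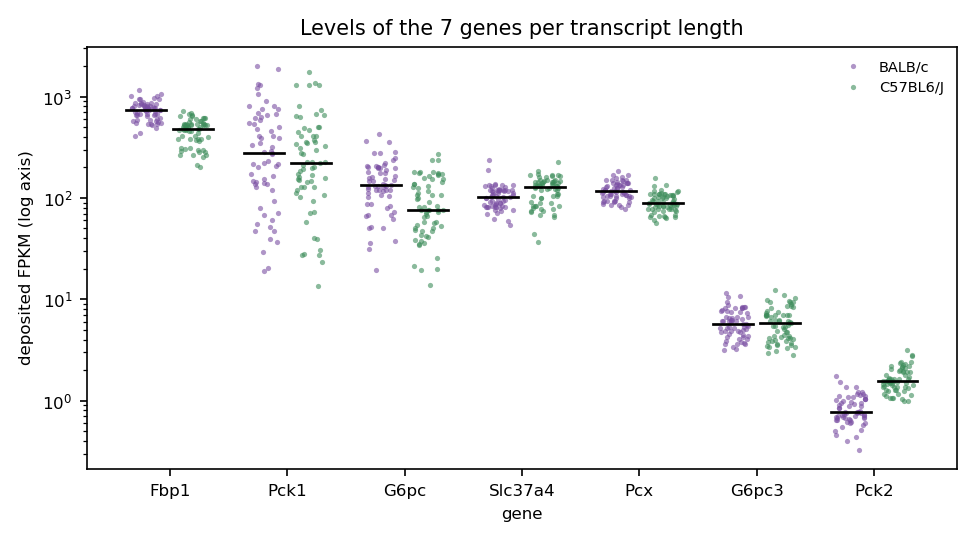
Deposited FPKM of each gene (log axis) in the 63 BALB/c and 65 C57BL6/J libraries, 1 point per library, with black bars at the median of each strain. Fbp1 lies highest and Pck2 lowest, and the points of Pck1 and G6pc spread most.

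Pck1 fell steeply within 3 h of feeding. In BALB/c livers on water it had 306, 418, 735, 375 and 555 CPM at 3 h, against 5381, 2889, 3752, 2760.2 and 5408 CPM at 0 h. On water, C57BL6/J livers had 406, 189.7, 432, 65.2 and 274 CPM at 3 h, against 4047, 160.3, 3490.3, 3799 and 5152 CPM at 0 h. The BALB/c groups did not overlap, and the C57BL6/J groups overlapped only through the 0 h library at 160.3 CPM. Over both strains the change was -3.34 ± 0.49 on the log2 scale (estimate ± SE, 10 libraries at each time; edgeR adjusted p = 3.24e-08), 0.0986 of the 0 h level. All 10 of 10 fed libraries lay below their strain's 0 h mean, and the value was -3.49 without the libraries nearest to another time. Within the libraries without the suffix it was -3.39 (adjusted p = 1.07e-05). The fall was -2.23 ± 0.47 at 6 h (edgeR adjusted p = 7.26e-05), when water livers averaged 783 ± 502 CPM, against 3684 ± 1567 CPM before feeding (SD, n = 10 each). At 12 h water livers averaged 1555 ± 804 CPM, and the difference from 0 h was -1.24 ± 0.45 (edgeR adjusted p = 0.0444); it did not pass when all libraries numbered replicate 1, 3, 4 or 5 were left out, with adjusted p from 0.0804 to 0.184. The 12 h call was also lost within the libraries without the suffix (-1.55, adjusted p = 0.0505), with no filter (adjusted p = 0.0687) and with the libraries of the contrast alone (adjusted p = 0.0719), and it held without the libraries nearest to another time (-1.39, adjusted p = 0.0159).

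G6pc fell less, and its difference from 0 h no longer passed at 6 and 12 h. In BALB/c livers on water it had 139.6, 296, 156, 167 and 159.8 CPM at 3 h, against 868, 274, 395, 547 and 455 CPM at 0 h. On water, C57BL6/J livers had 89.4, 91.0, 119.8, 45.1 and 126 CPM at 3 h, against 482, 86.2, 252, 199 and 328 CPM at 0 h. The ranges met in both strains, through BALB/c replicate 2 at 3 h and the low C57BL6/J library at 0 h. The change was -1.49 ± 0.29 on the log2 scale (edgeR adjusted p = 3.01e-05), lower in 10 of 10 libraries, -1.46 without the libraries nearest to another time and -1.67 within the libraries without the suffix. At 6 h the difference was -0.63 ± 0.29 and did not pass (edgeR adjusted p = 0.0909); without C57BL6/J water 0 h replicate 2 it was -0.75 and passed (adjusted p = 0.0387), as it did without all libraries nearest to another time (-0.79, adjusted p = 0.0493). At 12 h it was -0.36 ± 0.29 (edgeR adjusted p = 0.457).

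**Figure D2:**
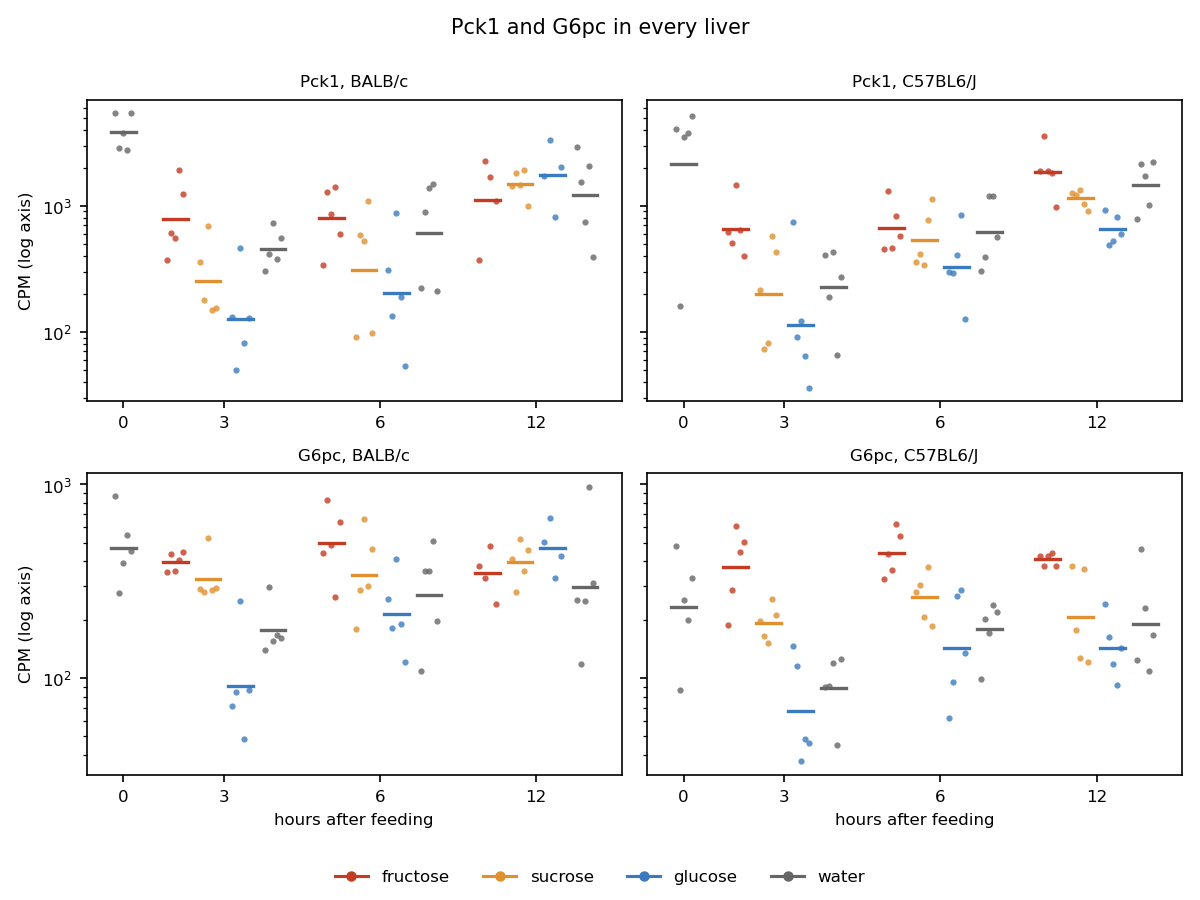
CPM of Pck1 (top) and G6pc (bottom) on log axes in every library of BALB/c (left) and C57BL6/J (right) against hours after feeding, coloured by drink, with bars at the geometric mean of each group. Pck1 is low at 3 h with all drinks, whereas the fructose points of G6pc at 3 h lie above all water points of the same strain.

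Of the other enzymes, 2 fell on water at 3 h and 2 did not pass at any time, while Pcx passed later. Slc37a4 had 196, 189, 206, 177 and 217 CPM in BALB/c livers at 3 h, against 486, 248, 289, 319 and 292 CPM at 0 h. The C57BL6/J values were 276, 292, 287, 182 and 337 CPM at 3 h, against 389, 279, 269, 299.8 and 310.1 CPM at 0 h. The BALB/c groups were apart and the C57BL6/J groups overlapped. The change was -0.45 ± 0.14 at 3 h (edgeR adjusted p = 0.0119), which did not pass without replicate 1 or 4 (adjusted p = 0.151 and 0.0785), -0.63 ± 0.14 at 6 h (edgeR adjusted p = 0.000232) and -0.65 ± 0.14 at 12 h (edgeR adjusted p = 0.00032). Its mean on water was 318 ± 69.9 CPM at 0 h, 236 ± 56.7 CPM at 3 h, 211 ± 59.2 CPM at 6 h and 203 ± 62.3 CPM at 12 h (SD, n = 10 each).

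Pck2, the mitochondrial isozyme, fell by a smaller factor than Pck1 and from a very low level. It averaged 3.57 ± 1.87 CPM at 3 h, against 5.07 ± 1.97 CPM at 0 h, a log2 change of -0.62 ± 0.16 (edgeR adjusted p = 0.00159). The change was -0.52 ± 0.16 at 6 h (edgeR adjusted p = 0.0091), not passed without replicate 3 or 4 (adjusted p = 0.0780 and 0.0747), and -0.09 ± 0.16 at 12 h (edgeR adjusted p = 0.775). Pcx, which supplies oxaloacetate, averaged 392 ± 50.7 CPM at 6 h, against 535 ± 147 CPM at 0 h, and its changes were -0.44 ± 0.15 at 6 h (edgeR adjusted p = 0.0193) and -0.44 ± 0.15 at 12 h (edgeR adjusted p = 0.0277). Both calls of Pcx were lost without the libraries nearest to another time (adjusted p = 0.0625 at 6 h and 0.0868 at 12 h) and without replicate 1 (0.271 and 0.344), that at 6 h also without replicate 5 and that at 12 h without replicate 3, 4 or 5. Fbp1 did not pass at any time: its differences were 0.00 ± 0.18 at 3 h (95% interval -0.35 to 0.36), -0.12 ± 0.18 at 6 h and -0.19 ± 0.18 at 12 h. G6pc3, the widely expressed phosphatase subunit, differed by -0.04 ± 0.21 at 3 h (-0.45 to 0.38), -0.23 ± 0.21 at 6 h and 0.11 ± 0.21 at 12 h.

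Counted over the genes, 4 of 7 were lower and 0 higher at 3 h on water, 4 of 7 were lower at 6 h and 3 of 7 at 12 h. Of all 16886 genes tested, 25.4% passed in either direction at 3 h, 28.8% at 6 h and 17.6% at 12 h. The 3 comparisons share the 0 h libraries.

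**Figure D3:**
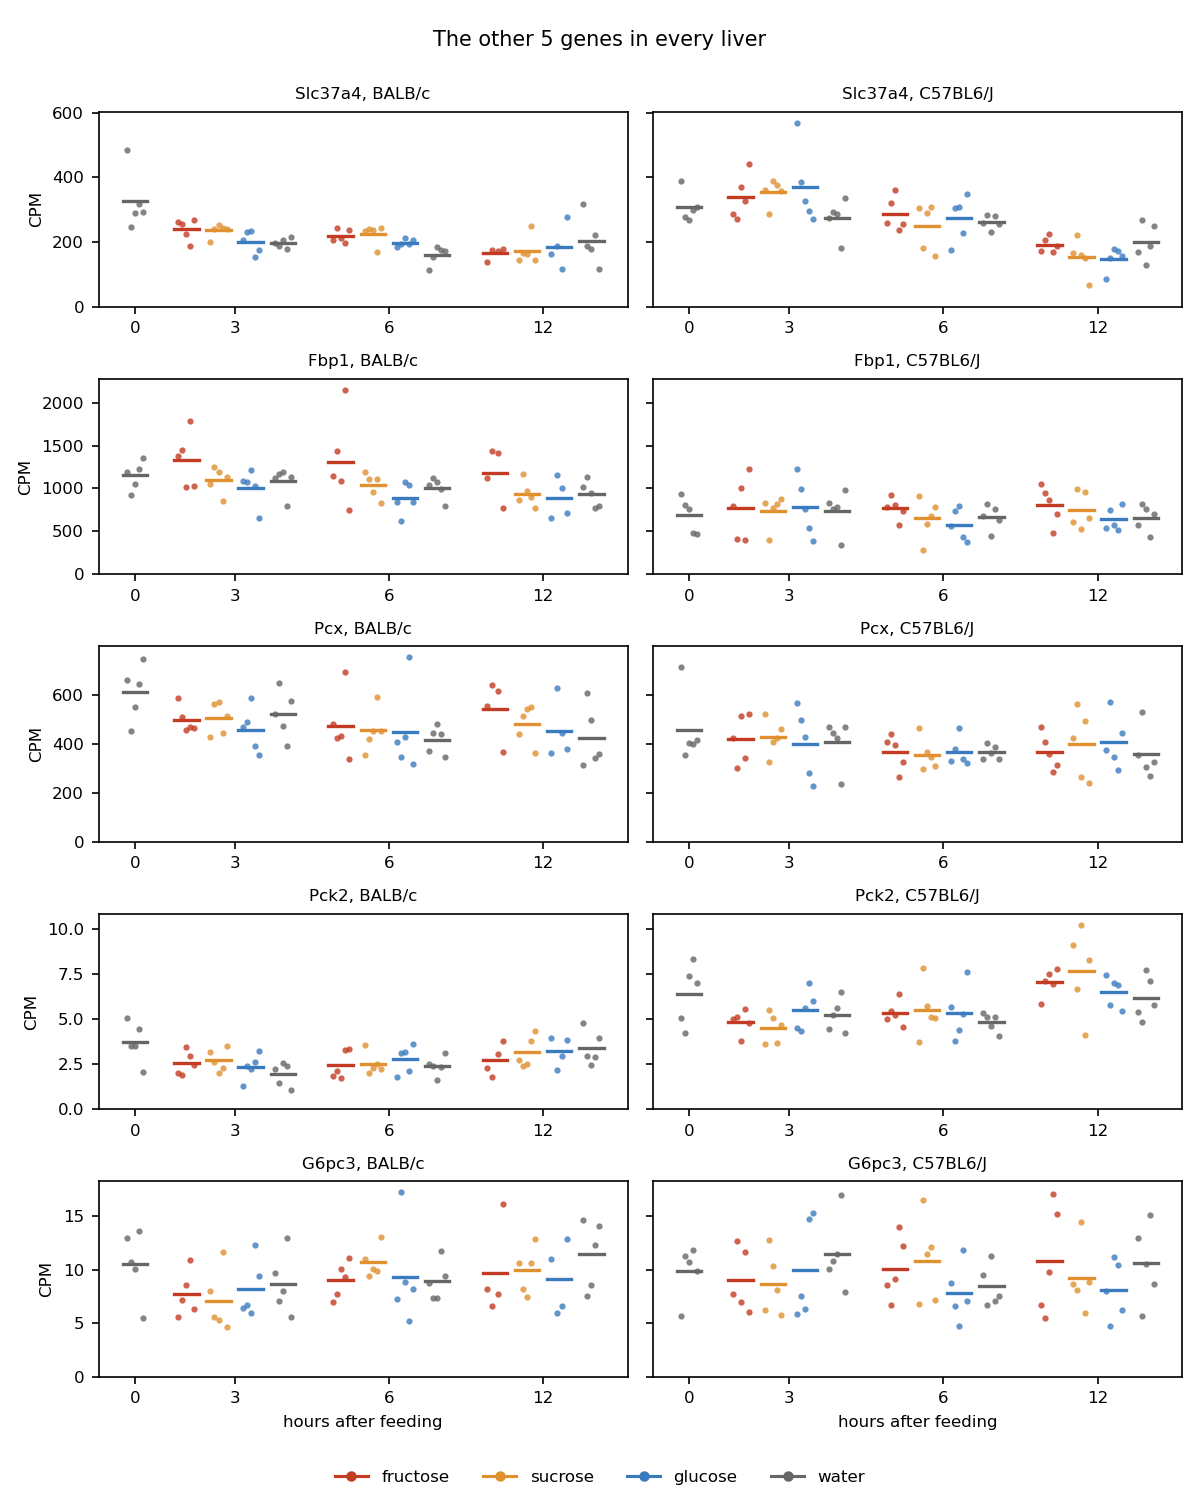
CPM of Slc37a4, Fbp1, Pcx, Pck2 and G6pc3 (rows, linear axes from 0) in every library of BALB/c (left) and C57BL6/J (right) against hours after feeding, coloured by drink, with bars at group means. Slc37a4 is lower at 12 h than at 0 h in each drink, Pck2 is lower and Fbp1 higher in BALB/c, and the drinks overlap at most times.

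G6pc rose with fructose at 3 h and at 6 h, the 6 h call being lost in several alternatives, and was the only one of the 7 genes to pass against water at either time. At 3 h G6pc had 352, 438, 356, 407 and 447 CPM in BALB/c livers with fructose, against 139.6, 296, 156, 167 and 159.8 CPM with water. In C57BL6/J livers it had 187, 286, 607, 449 and 502 CPM with fructose, against 89.4, 91.0, 119.8, 45.1 and 126 CPM with water. Every fructose library exceeded every water library of its strain. The log2 difference was 1.62 ± 0.30 (edgeR adjusted p = 6.66e-05), or 3.06-fold, and 1.45 without the libraries nearest to another time and 1.56 within the libraries without the suffix (adjusted p = 0.00917). At 6 h G6pc had 444, 830.3, 486, 261 and 639 CPM in BALB/c livers with fructose, against 108, 357, 356, 507 and 198 CPM with water, and these overlapped. The C57BL6/J livers had 326, 438, 361, 623 and 540.0 CPM with fructose, against 98.7, 203, 171, 239 and 220.4 CPM with water, and these did not. The 6 h difference was 1.05 ± 0.29 (edgeR adjusted p = 0.0426) and was 0.95 with an adjusted p of 0.09998 without the 2 libraries that held kidney transcripts; it also failed within the libraries without the suffix (0.96, adjusted p = 0.418) and without replicate 1, 2, 3 or 5. At 12 h the difference over both strains was 0.41 ± 0.30 (edgeR adjusted p = 1). The BALB/c livers then had 381, 329, 482 and 241 CPM with fructose, against 252, 118, 251, 969.8 and 309.6 CPM with water, and the C57BL6/J livers 429, 378, 426, 441 and 380.2 CPM with fructose, against 124, 465, 229.7, 109 and 167 CPM with water. The mean of fructose lay below that of water in BALB/c (358 and 380.0 CPM) and above it in C57BL6/J (411 and 219 CPM), and the values overlapped in both strains.

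Pck1 also stood higher with fructose than with water at 3 h, without passing the test. It had 373, 612, 557, 1936 and 1235 CPM in BALB/c livers with fructose, against 306, 418, 735, 375 and 555 CPM with water. In C57BL6/J livers it had 618, 507, 1448, 642 and 396 CPM with fructose, against 406, 189.7, 432, 65.2 and 274 CPM with water. The groups overlapped in both strains, and the difference was 1.19 ± 0.45 (95% interval 0.29 to 2.09; edgeR adjusted p = 0.106), passing in 1 alternative, when the 20 libraries of the contrast were fitted alone (adjusted p = 0.0411). It was 0.05 ± 0.45 at 6 h and 0.09 ± 0.46 at 12 h. For the remaining 5 genes the differences at 3 h lay between -0.26 for G6pc3 and 0.29 for Slc37a4, whose interval was 0.01 to 0.58. At 6 h Slc37a4 also differed by 0.29 (95% interval 0.01 to 0.58) and did not pass (edgeR adjusted p = 0.415). Its 6 h values were higher with fructose without overlap in BALB/c livers and overlapped in C57BL6/J livers. At 12 h its difference was -0.18 ± 0.15. Fbp1 differed by 0.17 ± 0.18 at 3 h, 0.29 ± 0.18 at 6 h and 0.32 ± 0.18 at 12 h, positive at each time and passing at none. In all, 1 of 7 genes passed at 3 h and 1 at 6 h, where 6.71% and 1.23% of all genes passed. At 12 h 0 of 7 passed by edgeR or DESeq2 and 0 had an unadjusted p under 0.05, where 0.00592% of all genes passed.

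None of the 7 genes passed between glucose and water, while Pck1 and G6pc had lower means with glucose. At 3 h Pck1 averaged 190.4 ± 228 CPM with glucose and 376 ± 187 CPM with water (SD, n = 10 each), a difference of -0.93 ± 0.45 (edgeR adjusted p = 0.926). G6pc averaged 93.3 ± 64.8 CPM with glucose and 139 ± 66.9 CPM with water, a difference of -0.51 ± 0.29 (95% interval -1.09 to 0.06). In the glucose groups the highest Pck1 values were 738.7 CPM in C57BL6/J replicate 1 and 460.7 CPM in BALB/c replicate 3, and the others lay between 36.2 and 132 CPM. By edgeR and by DESeq2 0 of 7 genes passed at 3, 6 or 12 h, and 1, 1 and 0 genes had an unadjusted p under 0.05. The shares of all genes passing were 0.19%, 0.906% and 0.0651%.

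Sucrose, which yields glucose and fructose when digested, gave mean levels of G6pc between those of glucose and fructose at 3 h, with values that overlapped with fructose in both strains. G6pc had 286, 277, 530.5, 285 and 291 CPM in BALB/c livers and 198, 164, 151, 257 and 211 CPM in C57BL6/J livers with sucrose. The C57BL6/J values lay above all water values of the strain, and the BALB/c values overlapped with the water values through water replicate 2. The difference from water was 0.96 ± 0.29 (edgeR adjusted p = 0.0464), higher in 10 of 10 libraries, but it did not pass within the libraries without the suffix (0.98, adjusted p = 0.320) or without replicate 1, 3, 4 or 5. It was 0.42 ± 0.29 at 6 h and 0.09 ± 0.29 at 12 h. Pck1 differed from water by -0.32 ± 0.45 at 3 h (95% interval -1.21 to 0.57). In all, 1 of 7 genes passed at 3 h, where 2.92% of all genes did. At 6 and 12 h 0 of 7 passed by edgeR or DESeq2, with 0 and 1 at an unadjusted p under 0.05, where 1.14% and 0.00592% of all genes passed.

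Set against each other at one time, fructose and glucose separated both genes at 3 h. G6pc had 352, 438, 356, 407 and 447 CPM with fructose in BALB/c livers, against 71.5, 84.9, 249.6, 48.0 and 86.8 CPM with glucose. With glucose, the C57BL6/J values were 146, 114, 37.0, 48.3 and 46.0 CPM, below all 5 fructose values. The difference was 2.13 ± 0.30 (edgeR adjusted p = 9.12e-07), 4.38-fold, and 1.75 without the libraries nearest to another time. Pck1 differed by 2.12 ± 0.47 (edgeR adjusted p = 0.00359), higher in 10 of 10 libraries, with overlap in both strains. That call of Pck1 was lost within the libraries without the suffix (1.99, adjusted p = 0.0658), without the libraries nearest to another time (1.54, adjusted p = 0.0812) and without replicate 4 (1.71, adjusted p = 0.0944). At 6 h G6pc differed by 1.32 ± 0.29 (edgeR adjusted p = 0.0188), not passed within the libraries without the suffix (1.10, adjusted p = 0.307) or without replicate 2 or 5 (adjusted p = 0.127 and 0.237), and Pck1 by 1.20 ± 0.45 (edgeR adjusted p = 0.278). The counts were 2 of 7 at 3 h, 1 of 7 at 6 h and 0 of 7 at 12 h, where 2.35%, 0.255% and 0% of all genes passed. At 12 h DESeq2 also called 0 of 7, and 1 had an unadjusted p under 0.05. In C57BL6/J livers at 12 h both genes were higher with fructose without overlap, with means of 411 and 151 CPM for G6pc and 2014.5 and 670 CPM for Pck1. In BALB/c livers the values overlapped and the fructose means were the lower, 358 and 482 CPM for G6pc and 1355 and 1976 CPM for Pck1.

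Between sucrose and glucose G6pc differed by 1.47 ± 0.29 at 3 h (edgeR adjusted p = 0.0094), with no overlap in either strain, and this did not pass within the libraries without the suffix (adjusted p = 0.102), without the libraries nearest to another time (1.29, adjusted p = 0.0541) or without replicate 4 or 5. It was 1 of 7 genes at 3 h, where 0.213% of all genes passed, and 0 of 7 passed at 6 h, where 0.0118% did, and at 12 h, where 0.00592% did; DESeq2 called 0 of 7 at both times, and 1 and 0 had an unadjusted p under 0.05. Fructose and sucrose were not told apart: G6pc differed by 0.65 ± 0.29 at 3 h (95% interval 0.08 to 1.23) and Pck1 by 1.51 ± 0.46 (0.60 to 2.42). No gene of the 16886 passed between fructose and sucrose by edgeR, 0% at 3 h, 0% at 6 h and 0% at 12 h, with 511, 402 and 243 genes at an unadjusted p under 0.05 and 7, 2 and 12 genes called by DESeq2. The 7 genes gave 0 calls by either tool, with 2, 1 and 0 at an unadjusted p under 0.05. All comparisons of a sugar with water, or of 2 sugars, share libraries at each time.

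Measured against the fasted liver, G6pc in fructose-fed livers did not pass over both strains, while Pck1 was far below its 0 h level at 3 and 6 h. At 3 h G6pc averaged 403 ± 116 CPM with fructose, against 389 ± 219 CPM before feeding (SD, n = 10 each), a difference of 0.12 ± 0.29 (95% interval -0.45 to 0.69; edgeR adjusted p = 0.837). The strains lay on either side of this mean, with 400.0 ± 44.6 CPM with fructose and 508 ± 225 CPM before feeding in BALB/c livers, and 406 ± 169 CPM and 269.5 ± 148 CPM in C57BL6/J livers (SD, n = 5 each). It was 0.42 ± 0.29 at 6 h and 0.05 ± 0.30 at 12 h, neither passing. Pck1 averaged 832 ± 524 CPM with fructose at 3 h, against 3684 ± 1567 CPM before feeding, a difference of -2.15 ± 0.47 (edgeR adjusted p = 0.000222), and it was -2.18 ± 0.47 at 6 h (edgeR adjusted p = 0.000134) and -1.15 ± 0.47 at 12 h (edgeR adjusted p = 0.0757). The 12 h difference passed without C57BL6/J water 0 h replicate 2 (-1.30, adjusted p = 0.0323), without all libraries nearest to another time (-1.31, adjusted p = 0.0276), by DESeq2 (-1.17, adjusted p = 0.0420) and within the libraries without the suffix (-1.58, adjusted p = 0.0405). Pck2 was lower at 3 h (-0.47 ± 0.16, edgeR adjusted p = 0.0267) and 6 h (-0.43 ± 0.16, edgeR adjusted p = 0.0395), and each call was lost without replicate 1, 3 or 4. Pcx differed by -0.35 at 6 h and did not pass (edgeR adjusted p = 0.0802), but passed without C57BL6/J water 0 h replicate 2 (-0.39, adjusted p = 0.0488). Slc37a4 was lower at 12 h (-0.83 ± 0.15, edgeR adjusted p = 6.78e-06) with no overlap in either strain, and differed by -0.16 ± 0.14 at 3 h and -0.34 ± 0.14 at 6 h. In all, 2, 2 and 1 of 7 genes were lower at 3, 6 and 12 h and 0 were higher, where 19.4%, 24.6% and 18.8% of all genes passed.

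**Figure D4:**
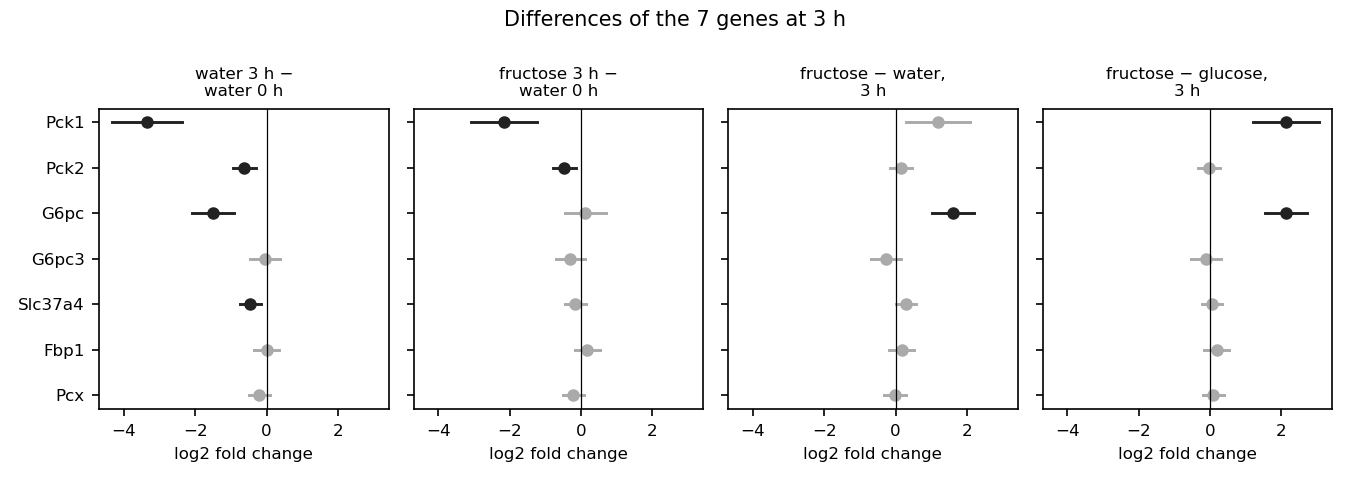
Log2 fold changes (points) with 95% intervals (lines) of the 7 genes in 4 comparisons at 3 h, black where the edgeR adjusted p passed 0.05 and grey where it did not. Pck1 lies at -3.34 and G6pc at -1.49 after feeding on water, and G6pc at 1.62 for fructose against water.

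The 2 responses were compared inside each liver through ratios of CPM, tested by exact permutation of labels within strain (36 tests, two-sided, Benjamini-Hochberg adjusted). On water the log2 ratio of Pck1 to each of the other 6 genes was lower at 3 h than at 0 h, by between -1.76 against G6pc and -3.15 against Fbp1, and all 6 passed in 13 of 13 settings. The ratio of Pck1 to G6pc differed by -1.76 at 3 h (adjusted p = 0.00249), by -1.62 at 6 h (adjusted p = 0.00416) and by -0.62 at 12 h (adjusted p = 0.248), lower in 10 of 10 libraries at 3 h. At 12 h none of the 6 ratios of Pck1 passed in the full set, but each passed in 4 of 13 settings, among them without C57BL6/J water 0 h replicate 2 (-0.91 to G6pc, adjusted p = 0.0423) and without the libraries nearest to another time (-1.02 to G6pc, adjusted p = 0.0258; -1.53 to Fbp1, adjusted p = 0.000638). With fructose at 3 h the ratio of G6pc rose against 5 of 6 genes, by between 1.33 against Slc37a4 (adjusted p = 0.000756) and 1.88 against G6pc3 (adjusted p = 0.000850), but against Pck1 it differed by 0.47 (adjusted p = 0.203). At 6 h G6pc rose against all 6, against Pck1 by 0.87 (adjusted p = 0.0452), and at 12 h against none. When same-numbered libraries were paired within strain and tested by sign flips, the 6 h ratio to Fbp1 did not pass (0.84, adjusted p = 0.0728). At 12 h the ratios to 5 genes other than Pck1 did, from 0.62 to Fbp1 (adjusted p = 0.0469) up to 1.03 to G6pc3 (adjusted p = 0.0367). This 12 h test left out BALB/c water replicate 4 (969.8 CPM of G6pc), which had no fructose library of its number. The paired test thus differed from the main one both in the pairing and in this library. Unpaired, by permutation without all libraries numbered replicate 4, the 12 h ratios to Pck2 (0.84, adjusted p = 0.0382) and Slc37a4 (0.87, adjusted p = 0.0262) passed. Those to G6pc3, Fbp1 and Pcx did not. The 3 h calls held in 13 of 13 settings, while at 6 h the call of G6pc against Pck1 held in 8 of 13 and that against Fbp1 in 6 of 13. The 6 h calls against Pck2, G6pc3, Slc37a4 and Pcx were lost without replicate 1 and without replicate 5. Those against Pck2 and Pcx were also lost within the libraries without the suffix. The unpaired 12 h ratio to Slc37a4 also passed without C57BL6/J water 0 h replicate 2 and without the libraries nearest to another time (0.80, adjusted p = 0.0497 in each). In BALB/c livers the mean log2 ratio of G6pc to Pck1 was -0.99 ± 0.87 with fructose at 3 h, against -1.37 ± 0.67 with water (SD, n = 5 each), and -3.04 ± 0.53 before feeding. In C57BL6/J livers it was -0.80 ± 0.78 with fructose, against -1.35 ± 0.66 with water, and -3.20 ± 1.36 before feeding. The highest mean at 3 h was that of sucrose in BALB/c livers, 0.36 ± 0.66.

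**Figure D5:**
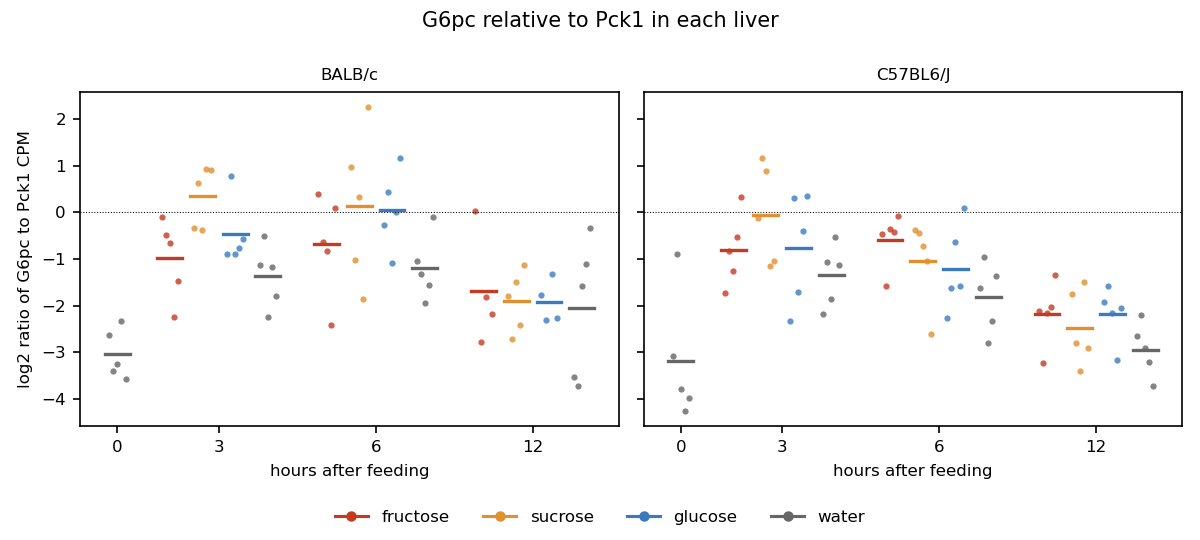
Log2 ratio of G6pc to Pck1 CPM in every library of BALB/c (left) and C57BL6/J (right) against hours after feeding, coloured by drink, with bars at group means. The 0 h means of -3.04 and -3.20 lie below all means at 3 h.

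The 2 strains differed in 5 of 7 genes when all groups were averaged, where 55.3% of all genes passed. Pck2 was lower in BALB/c in all 13 combinations of drink and time, without overlap in 11 of them, with a median of 2.54 CPM (range 1.09 to 5.09) in 63 BALB/c libraries and 5.46 CPM (range 3.63 to 10.2) in 65 C57BL6/J libraries. The difference was -1.06 ± 0.06 (edgeR adjusted p = 6.45e-30). G6pc was higher in BALB/c by 0.62 ± 0.11 (edgeR adjusted p = 1.70e-06), with a higher mean in 11 of 13 combinations and medians of 329 CPM in BALB/c and 203 CPM in C57BL6/J. Fbp1 and Pcx were higher in BALB/c in all 13 combinations, by 0.58 ± 0.07 (edgeR adjusted p = 4.58e-12) and 0.30 ± 0.06 (edgeR adjusted p = 7.36e-06). Slc37a4 was lower in BALB/c (-0.29 ± 0.06, edgeR adjusted p = 5.04e-06), with a lower mean in 9 of 13. Pck1 (0.19 ± 0.18, edgeR adjusted p = 0.372) and G6pc3 (-0.06 ± 0.08, edgeR adjusted p = 0.591) did not pass.

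Whether the strains answered feeding or drinks unlike each other was tested by interaction terms. By edgeR 0 of 7 genes passed for strain by feeding on water, with the lowest unadjusted p at 0.0141 and adjusted p at 0.33 for Slc37a4, where 0.634% of all genes passed. For strain by drink 0 of 7 passed at 3, 6 or 12 h, where 0.0474%, 0.178% and 0% of all genes passed. The fructose effect was also set against itself across the times: G6pc had an unadjusted p of 0.0178 and an adjusted p of 0.222 in edgeR. Its difference from water of 1.62 at 3 h, 1.05 at 6 h and 0.41 at 12 h was therefore not shown to change with time, where 2.24% of all genes passed. The genes of the 7 with an unadjusted p under 0.05 were 1 for strain by feeding, 0, 0 and 1 for strain by drink and 2 for fructose by time. The 1 for strain by drink at 12 h was G6pc (unadjusted p = 0.0312, adjusted p = 1), and these terms were not run with DESeq2.

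Ordered by mean CPM over both strains, Pck1 was highest at 0 h (3684 ± 1567 CPM, SD), then in the 4 drinks at 12 h, fructose 1721 ± 898 CPM, water 1555 ± 804 CPM, sucrose 1340.0 ± 331 CPM and glucose 1251 ± 944 CPM. The 3 and 6 h groups followed, fructose at the top with 832 ± 524 CPM at 3 h and 812 ± 396 CPM at 6 h, then water at 6 h, sucrose at 6 h, water at 3 h, glucose at 6 h, sucrose at 3 h and, last, glucose at 3 h with 190.4 ± 228 CPM. Only the first step of this order, from 0 h to fructose at 12 h, was wider than 1 SD, and the ranges of all 12 neighbouring pairs overlapped. The order of the drinks at 12 h was not shared by the strains. Fructose was highest and glucose lowest in C57BL6/J livers, with means of 2014.5 and 670 CPM. In BALB/c livers fructose was lowest and glucose highest, with 1355 and 1976 CPM. Over both strains the order of G6pc differed from that of Pck1. Fructose at 6 h (495 ± 169.6 CPM) and 3 h (403 ± 116 CPM) stood above water at 0 h (389 ± 219 CPM) and fructose at 12 h (387 ± 70.6 CPM). Sucrose at 6 and 12 h came next, then water and glucose at 12 h, whose means over libraries were 299.5 and 298.5 CPM and whose order turns with the weight given to each strain, then sucrose at 3 h and water and glucose at 6 h, and water at 3 h (139 ± 66.9 CPM) and glucose at 3 h (93.3 ± 64.8 CPM) were lowest. All 12 neighbours of G6pc, and those of the other 5 genes, lay within 1 SD of each other.

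Genes around the pathway were taken from lists of named regulators and enzymes. Of 17 hormonal and transcriptional regulators of glucose production, 11 were lower and 0 higher on water at 3 h, with a list median log2 change of -0.79 against -0.01 over all genes, of which 25.4% passed in either direction. Foxo1, a transcription factor that insulin signalling excludes from the nucleus, changed by -1.30 ± 0.14, Ppargc1a, a fasting-induced coactivator, by -2.18 ± 0.26, and Irs2, an adaptor of the insulin receptor, by -1.87 ± 0.40. Gcgr, the glucagon receptor, differed by -0.17 ± 0.22 and did not pass. In the fructose comparison with water at 3 h 1 of 17 regulators was higher, Sirt1 at 0.39 ± 0.10, where 6.71% of all genes passed, and the list median was 0.06 against 0.0017 over all genes. Foxo1 differed there by 0.04 ± 0.14 and Ppargc1a by 0.22 ± 0.25, neither passing. These are message levels, and the activity of the regulators was not tested.

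Of 14 genes for the entry of alanine, lactate, glycerol and other precursors, 7 were lower and 2 higher on water at 3 h, with a list median of -0.20, where 25.4% of all genes passed. Sds, serine dehydratase, changed by -1.84 ± 0.30 and Got1, the cytosolic aspartate aminotransferase, by -1.42 ± 0.31, whereas Slc16a1, a lactate and pyruvate carrier, was higher by 0.95 ± 0.16. With fructose against water 0 of 14 passed in edgeR at 3 h, with 1 at an unadjusted p under 0.05. The reversible enzymes shared with glycolysis gave 0 of 9 calls on water at 3 h, with 1 at an unadjusted p under 0.05, and 2 of 9 were higher with fructose against water at 3 h, where 6.71% of all genes passed. Among these 2, Gpi1, which interconverts glucose-6-phosphate and fructose-6-phosphate, was higher by 0.75 ± 0.14. Of 5 opposing glycolytic genes 1 was higher with fructose, Pklr, liver pyruvate kinase, by 1.14 ± 0.37. Of 7 genes for fructose breakdown and ChREBP, 2 were higher with fructose against the same 6.71%, Dak, the older symbol of triokinase, by 1.15 ± 0.22, and Txnip, a glucose-responsive gene, by 1.04 ± 0.27. Mlxipl, which encodes ChREBP, differed by 0.61 ± 0.22 and Khk, ketohexokinase, by 0.46 ± 0.16, neither passing. These calls were not particular to fructose. With sucrose at 3 h 2 of 9 reversible, 1 of 5 opposing and 2 of these 7 genes were higher than with water, where 2.92% of all genes passed. With glucose the counts were 0, 0 and 1, where 0.19% passed. Between fructose and glucose 1 opposing gene was lower and 0 of the other 2 lists passed, where 2.35% did. The further isoforms G6pc2 and Fbp2 were near the limit of detection, with mean levels of 0.380 and 0.325 CPM.

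By likeness over the 26 group means of log2 CPM, among 9061 genes (9062 for Pck2) with a mean of at least 5 CPM, the genes most like Pck1 were Angptl4 (Pearson r = 0.921), Zkscan14 (0.920) and Slc7a2 (0.914). The genes most like G6pc were Plekhg3 (r = 0.785), Rhbdd3 and Spata2l. Those most like Slc37a4 were Pfkfb3 (0.916), Zfp276 and Coq10b, and those most like Pck2 were Mertk (0.969), Ppap2c and Adrb3. Fbp1 was most like Ogfod3 (0.924) and Pcx most like Yipf3 (0.926). Among the 7 themselves, Fbp1 and Pcx had r = 0.808, Pck1 and G6pc r = 0.661, and Pck2 and Fbp1 r = -0.838. The points are group means that share a scaling and 2 strains, so these values are descriptions.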

How the data were processed

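RNA of mouse liver was sequenced in 128 libraries. The authors deposited raw read counts per gene for each library and FPKM values made from them; each FPKM equals the count scaled by total and gene length. STAR 2.5, HTSeq 0.6.1, CASAVA and DESeq2 and the builds mm10 and GRCm38 are named in the submitters' processing notes, and no source here states a strand setting. Totals ranged from 18541545 to 43118895 counts. Intervals at 95% are for the estimated log2 difference, weighed against the spread between libraries. Their standard errors were derived from that difference and the F statistic of its test.

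Counts were scaled by TMM, filtered for low counts over the 26 groups (16886 of 35275 genes kept; 8695 genes had no read) and fitted with edgeR 4.0.16 (R 4.3.3), quasi-likelihood, 1 mean per group, with 102 residual degrees of freedom. Contrasts average both strains with equal weight. A gene passed at a Benjamini-Hochberg adjusted p below 0.05 over all genes tested. FPKM served only for levels between genes. Ratios of log2 CPM (prior count 1) were tested by exact permutation within strain. Sequences come from RefSeq promoter windows of GRCm38.p6. Within a group no pair of libraries agreed within sampling noise (lowest chi-square per degree of freedom 19.17 over 252 pairs). The 7 genes and the gene lists were chosen with earlier results of these data known. All 7 genes are described; of the lists, genes are named as examples, some chosen after their values were seen, and some genes of the lists are not reported here. Alternatives were DESeq2 1.42.0, other size factors, no filter, a replicate block (for ratios, libraries paired by number), the name suffix, the contrast's libraries alone and libraries left out.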

Additional observations from a re-analysis of the deposited data

Results flagged for a closer look

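In each gene and group, the highest or lowest library was compared with the rest, and was picked out where its gap to the nearest one took up most of the group's range (Dixon's test at the 95% level). Of 182 combinations of gene and group, 17 were picked out, in 16 libraries; chance picks out about 1 in 20. All values are CPM, and no cause was tested.

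Pck1 stood apart at 3 h. It had 1448 CPM in C57BL6/J fructose replicate 3, where the others had 396 to 642 CPM. It had 739 CPM in C57BL6/J glucose replicate 1 (others 36.2 to 121) and 461 CPM in BALB/c glucose replicate 3 (others 49.5 to 132).

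G6pc stood apart in 4 BALB/c libraries. It had 249.6 CPM in glucose 3 h replicate 3 (others 48.0 to 86.8), the library that was also high in Pck1. It had 530.5 CPM in sucrose 3 h replicate 3 (others 277 to 291), 296 CPM in water 3 h replicate 2 (others 139.6 to 167) and 969.8 CPM in water 12 h replicate 4 (others 118 to 309.6).

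Slc37a4 stood apart in 4 BALB/c libraries, low in 3 of them. The low values were 200.2 CPM in sucrose 3 h replicate 1, 171 CPM in sucrose 6 h replicate 4 and 138 CPM in fructose 12 h replicate 1, and the high one was 249.6 CPM in sucrose 12 h replicate 4. G6pc3 had 16.1 CPM in BALB/c fructose 12 h replicate 5 (others 6.57 to 8.19).

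Fbp1 was low, at 401 CPM in C57BL6/J sucrose 3 h replicate 2 (others 772 to 880.1) and 793 CPM in BALB/c water 3 h replicate 4 (others 1121 to 1197). Pcx was high, at 714 CPM in C57BL6/J water 0 h replicate 1 (others 356 to 417) and at 753 CPM in BALB/c glucose 6 h replicate 4 (others 316 to 427), and low, at 235 CPM in C57BL6/J water 3 h replicate 4 (others 422 to 469).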

How the results depend on the processing

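Every value for a single gene or ratio kept its sign wherever either fit called it, under 15 alternatives for genes and 12 for ratios; of 2188 values called in neither fit, 143 took the other sign. Counts are of the 7 genes that passed. For water against 0 h the count was 4 at 3 h (3 to 4 when 1 replicate number was left out) and 4 at 6 h (3 to 5, and 5 without C57BL6/J water 0 h replicate 2); at 12 h it was 1, not 3, with the libraries of the contrast alone, 2 with no filter, without the suffix libraries and without those nearest to another time, and 1 to 3 with a replicate left out. For sucrose against water at 3 h it was 0, not 1, with no filter and within the libraries without the suffix, and 0 to 1 with a replicate left out. For fructose against water it was 2, not 1, at 3 h with the contrast alone; at 6 h it was 0, not 1, with no filter, without the suffix libraries and, chosen after seeing the data, without the 2 libraries with kidney transcripts, and 0 to 1 with a replicate left out. For fructose against glucose it was 1, not 2, at 3 h without the suffix libraries or without those nearest to another time (1 to 2 with a replicate left out), and 0, not 1, at 6 h without the suffix libraries or with the contrast alone (0 to 1). For sucrose against glucose at 3 h it was 0, not 1, in all 3 of these fits (0 to 1). For fructose against 0 h it was 1, not 2, at 3 h with the contrast alone (1 to 2), 1, not 2, at 6 h with no filter or the contrast alone (1 to 4), and 2, not 1, at 12 h by DESeq2, without the suffix libraries, without C57BL6/J water 0 h replicate 2 and without those nearest to another time (1 to 2). The cause was not tested.

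Replicate numbers recur across groups, and the library labels run in series, with a library of nearly every group under each number. Of 1576 pairs with the same number, 947 correlated at or under 0.1 (mean 0.0702, against -0.0172 for different numbers). Even so, 88 libraries, the larger part of them, were closest on average to their own number. The labels do not say what a number marks, and the main fit held no replicate block. The replicate block changed no count of genes, for example 4 of 7 on water at 3 h and 1 of 7 for fructose against water at 3 h. For ratios it was a pairing of same-numbered libraries, which dropped those without a partner. Among 246 results 6 calls changed, all for ratios of G6pc. That to Fbp1 at 6 h (0.84) no longer passed, and 5 at 12 h then passed, without BALB/c water replicate 4.

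Depth was lowest for Pck2 and G6pc3, with as few as 34 and 109 counts in a library; for water at 3 h against 0 h their standard errors were 0.16 and 0.21, against 0.49 for Pck1 and 0.29 for G6pc.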
